A study of Mus musculus with 10 samples.

Results

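The genes described here are the 10 core genes of the circadian clock, Arntl, Clock, Per1, Per2, Per3, Cry1, Cry2, Nr1d1, Nr1d2 and Dbp, taken by symbol from a table of 31510 genes. All 10 were found once and all passed the filter on low values, which kept the 17556 genes that reached a normalised count of 10 in 5 or more libraries. The libraries were poly(A)-selected RNA of the micro-dissected hippocampus of male APP/PS1 mice, a strain (34832-JAX) whose transgenes for mutant amyloid precursor protein and presenilin 1 lead to amyloid deposits. Both groups received an AAV8 vector through the tail vein at 8 months of age. In the AAV8-irisin group of 5 mice it carried FLAG-tagged irisin, the secreted part of the Fndc5 protein, and in the AAV8-GFP group of 5 control mice it carried GFP. Overexpression was aimed at the liver, not at the brain, and the hippocampus was collected 2 months later. No mice without the transgenes and no uninjected mice were among these samples. The sources used here do not give the time of day of collection.

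The clock is a feedback loop of transcription that runs in nearly every cell and takes about a day. BMAL1, encoded by Arntl, and CLOCK bind E-box elements together and switch on the Per, Cry and Nr1d genes and Dbp. PER and CRY proteins then repress that activity, while the REV-ERB receptors encoded by Nr1d1 and Nr1d2 repress Arntl, so that Arntl transcripts rise and fall in near opposition to those of Dbp, Nr1d1 and Per3. DBP in turn activates genes with D-box elements, among them Per genes. In the hippocampus this loop is known to influence excitability and memory by time of day.

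Sequences before the start site are shown for Per3 and Arntl, which moved with and against Dbp across mice, and for Per1 and Cry1, which hold an E-box there. Windows of 250 bases before the start were taken from RefSeq on GRCm38.p6 for 9 of 10 members. Per2 was not found there and was not searched. The most upstream start was used where a gene had more than 1. Each window was searched on both strands for the E-box CACGTG, its variant CACGTT and the D-box TTATGTAA. It was also searched for the REV-ERB and ROR response element (RORE) and the cAMP response element TGACGTCA. No matches overlapped in the members' windows. Capitals mark a match, and the variant reads AACGTG where it lies on the other strand. Stretches are given 5′ to 3′ on the strand of the gene and hold no annotated exon. They are chr4:151044766-151044915 of Per3 (minus strand, within an intron of Camta1), chr7:113207215-113207464 of Arntl (plus strand), chr11:69098739-69098828 of Per1 (plus strand, within an intron of longer Per1 transcripts) and chr10:85185075-85185164 of Cry1 (minus strand).
Per3: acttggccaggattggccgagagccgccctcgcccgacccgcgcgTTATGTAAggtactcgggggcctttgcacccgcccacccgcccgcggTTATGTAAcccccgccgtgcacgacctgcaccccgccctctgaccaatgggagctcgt
Arntl: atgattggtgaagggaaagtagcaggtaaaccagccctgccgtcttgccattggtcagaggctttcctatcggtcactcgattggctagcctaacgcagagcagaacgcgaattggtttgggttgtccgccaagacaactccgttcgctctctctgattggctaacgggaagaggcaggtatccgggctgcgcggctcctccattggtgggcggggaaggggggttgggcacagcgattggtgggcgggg
Per1: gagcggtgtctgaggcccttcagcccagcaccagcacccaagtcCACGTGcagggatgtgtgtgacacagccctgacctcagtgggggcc
Cry1: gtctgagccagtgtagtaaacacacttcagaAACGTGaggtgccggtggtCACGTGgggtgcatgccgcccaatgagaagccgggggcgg
Per3 held 2 D-boxes, 205 and 158 bases before its start, and 0.819% of the 32851 RefSeq windows of this length held at least 1. Per1 held an E-box 166 bases before its start, an element found in 6.02% of windows. Cry1 held an E-box 60 bases before its start and the variant 79 bases before it. The variant, found in 3.85% of windows, was also present before Cry2 (166 bases) and Nr1d1 (28 bases). The RORE and the cAMP response element, present in 0.0487% and 1.55% of windows, were found in none of the 9 members. Only 16 of the 32851 windows held this form of the RORE. Its absence here therefore cannot show whether other forms of the RORE are present. In Arntl, Clock, Nr1d2 and Dbp none of the motifs was found in this window. Of the 250 bases, 159 in the window of Dbp were annotated exon of Dbp itself. In that of Clock 167 were exon of Gm7467. Absence from a window cannot show whether the gene holds these motifs elsewhere.

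Normalised counts summed to between 35284321 and 36623029 per library, and the estimated depth was 30705458 to 41508590 reads. On the first principal component of all tested genes, which held 14.2% of the variance, AAV8-GFP mouse 1 stood apart at −32.1, against −10.8 to 8.75 in the other 9 libraries. Hippocampal markers were present, with 3417 to 4505 normalised counts of the dentate gyrus factor Prox1 and 6269 to 8030 of the CA1 gene Fibcd1. Among 8 markers of the suprachiasmatic nucleus, the central pacemaker, Avp, Nms, Prok2, Six6 and Lhx1 did not pass the filter and reached at most 21.8. The other 3 passed, with 359 to 471 normalised counts of Vip, 635 to 824 of Grp and 159 to 233 of Rgs16. In whole tissue, fewer cells of a type and less RNA per cell cannot be told apart.

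The first question was whether peripheral irisin shifted the level of clock genes. No member differed between the groups at an adjusted p under 0.05 by limma, where the background was 0% of tested genes. The largest differences were in Nr1d2 and Dbp, whose means were 12.5% and 10.9% higher in AAV8-irisin. The means of the other 8 differed by 7.09% or less. Of the 10 genes, 8 had a higher mean and 2 a lower one, with a median log2 difference of 0.055, against 50.5% higher and a median of 0.00099 over all tested genes. In none of the 10 did the groups separate fully, which was the case for 0.803% of tested genes. One member, Nr1d2, had an unadjusted p under 0.05, as did 4.49% of all tested genes.

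**Figure D1:**
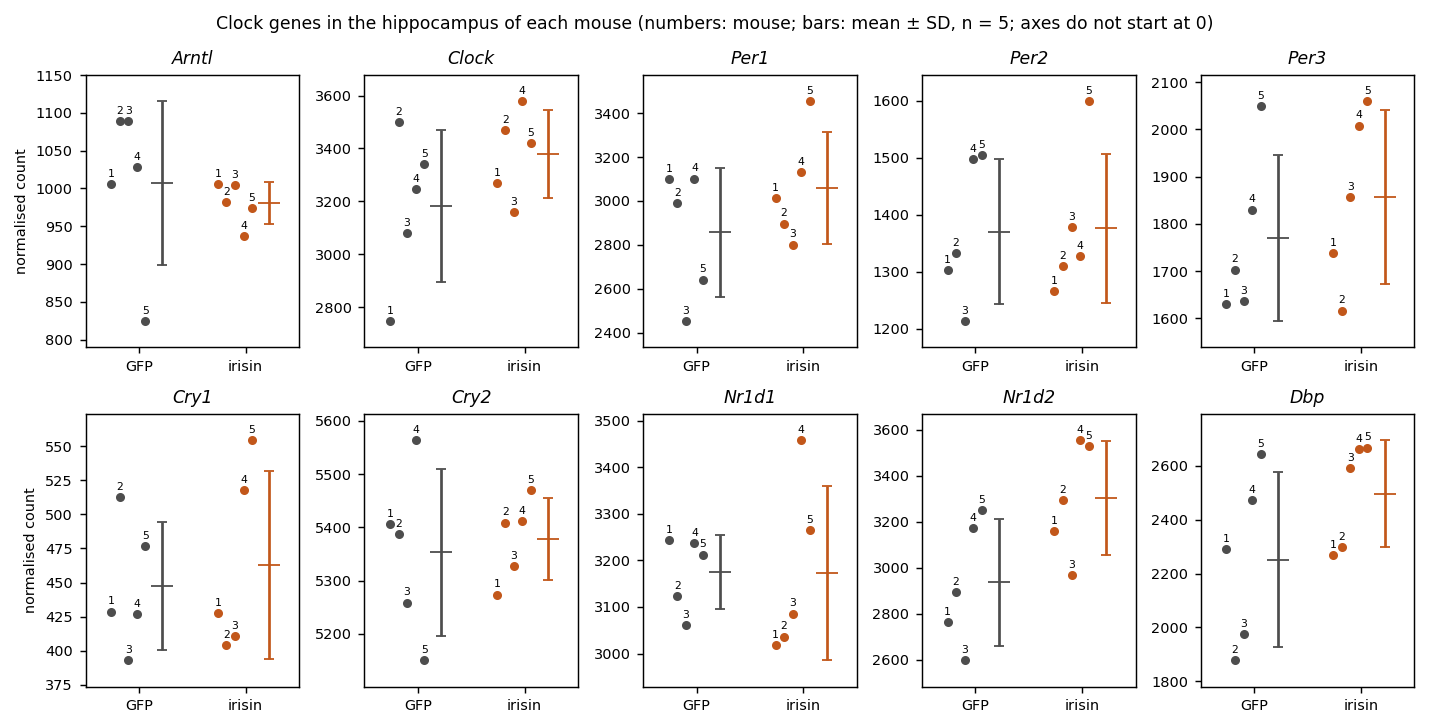
Normalised count of each clock gene (vertical axes, which do not start at 0) in each mouse, with AAV8-GFP in grey and AAV8-irisin in orange, mouse numbers beside the points, and the mean ± SD of 5 mice as bars. The groups overlap in all 10 genes, and in Nr1d2 3 of 5 AAV8-irisin mice exceed every control.

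Among the activators, Arntl (chromosome 7, 113207465 to 113314126, plus strand) had normalised counts of 1006, 1089, 1089, 1028 and 824 in AAV8-GFP mice 1 to 5 and, in the same order, of 1005, 982, 1005, 937 and 974 in AAV8-irisin mice. AAV8-GFP mouse 5 was the lowest of all 10 and AAV8-irisin mice sat in a narrow band inside the control range. The log2 difference, the mean log2(value + 1) with irisin less that of the controls, was −0.032 with a standard error of 0.069 (limma, adjusted p = 0.967), and its 95% interval was −0.18 to 0.12. Without AAV8-GFP mouse 5 the difference was −0.10, and it was −0.0020 without mouse 2 or mouse 3 of that group. Clock (chromosome 5, 76209868 to 76304792, minus strand) had 2748, 3500, 3080, 3247 and 3341 in the controls and 3268, 3468, 3159, 3580 and 3421 with irisin. AAV8-GFP mouse 1, the library that stood apart, had the lowest Clock value. The log2 difference was 0.090 with a standard error of 0.058 (limma, adjusted p = 0.942, 95% interval −0.036 to 0.22). It was 0.038 without AAV8-GFP mouse 1.

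The period genes encode repressors, and Per1 and Per2 are known for rapid induction by light and other signals. Per1 (chromosome 11, 69095217 to 69109960, plus strand) had normalised counts of 3098, 2989, 2453, 3101 and 2642 in the controls and 3014, 2897, 2801, 3130 and 3455 with irisin. The low values were those of AAV8-GFP mice 3 and 5, and the high one that of AAV8-irisin mouse 5. Its log2 difference was 0.10 with a standard error of 0.071 (limma, adjusted p = 0.942), with a 95% interval of −0.051 to 0.25. Without AAV8-GFP mouse 3 it was 0.048. Summed astrocyte markers (Aqp4, Gfap, Slc1a3, Aldh1l1 and Gja1) ranged from 54780 to 66060 in the controls and from 50410 to 57480 with irisin, with 4 of the 5 genes lower in AAV8-irisin. Most of each sum was Gfap (21042 to 31554) and Slc1a3 (16565 to 21245). Across the 10 mice Per1 ran against this sum, with r = −0.94 (permutation p = 0.00023, adjusted p = 0.0322 over 140 relations of the members with marker sums, depth and the first component). Spearman's rho was −0.88 (permutation p = 0.00168). With the 2 libraries farthest from the median sum left out, r was −0.80. Summed microglia markers, with 5 of 5 genes lower in AAV8-irisin, also ran against Per1 (r = −0.79, permutation p = 0.0071, adjusted p = 0.178, rho = −0.65). With 2 libraries left out that r was −0.64. The part of astrocyte or microglia content in the Per1 values was not tested.

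Per2 (chromosome 1, 91415982 to 91459324, minus strand) had a normalised count of 1370 ± 127 in the controls and 1376 ± 131 with irisin (SD, 5 mice each), and its log2 difference of 0.0063 had a 95% interval of −0.15 to 0.16. Its sign turned with quantile normalisation, with array weights and without 4 single mice. Per3 (chromosome 4, 151003652 to 151044665, minus strand) had 1631, 1703, 1636, 1830 and 2049 in the controls and 1738, 1617, 1858, 2008 and 2060 with irisin. High values occurred in both groups, in AAV8-GFP mouse 5 and in AAV8-irisin mice 4 and 5. The log2 difference of Per3 was 0.068 with a standard error of 0.075 (limma, adjusted p = 0.948).

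The cryptochromes are the partners of the PER proteins and the stronger repressors of the pair. Cry1 (chromosome 10, 85131700 to 85185064, minus strand) had 448 ± 47.2 normalised counts in the controls and 463 ± 68.7 with irisin. The log2 difference was 0.042 (95% interval −0.17 to 0.26), and its sign turned without AAV8-GFP mouse 3, AAV8-irisin mouse 4 or AAV8-irisin mouse 5. Cry2 (chromosome 2, 92403646 to 92434043, minus strand) was the steadiest member, with 5353 ± 157 and 5378 ± 77.3 and a log2 difference of 0.0071 (95% interval −0.059 to 0.073), whose sign turned without AAV8-GFP mouse 5. The SD of Cry2 between mice of a group was 0.033 on the log2 scale, at the 1.8 percentile of all tested genes. The residual SDs of Nr1d1 (0.065) and Cry1 (0.18) were at the 16.5 and 67.4 percentiles, and those of the other 7 members lay between the 42.9 and 64.4 percentiles.

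The REV-ERB genes are direct targets of BMAL1 and CLOCK and close the second loop by repressing Arntl. Nr1d2 (chromosome 14, 18204054 to 18239127, minus strand) had normalised counts of 2763, 2895, 2597, 3173 and 3252 in the controls and 3161, 3293, 2969, 3555 and 3530 with irisin. Each AAV8-irisin mouse exceeded the control mean, and 3 of the 5 exceeded every control. The means were 2936 ± 275 and 3302 ± 248 (SD, 5 mice each), 12.5% higher in AAV8-irisin. The log2 difference was 0.17 (standard error 0.065, 95% interval 0.031 to 0.31), with unadjusted p = 0.0203 and adjusted p = 0.942 by limma, so it did not pass. Leaving out single mice gave 0.13 to 0.21. Markers of striatum were higher with irisin in 5 of 6 genes (2 at unadjusted p under 0.05 by limma), with sums of 3679 to 4167 in the controls and 3924 to 4697 with irisin. Most of each sum was Pde10a, with 2696 to 3806. The striatum sum ran with Nr1d2 across mice (r = 0.67, permutation p = 0.0313, adjusted p = 0.263 over 140 relations, rho = 0.73, and r = 0.70 with 2 libraries left out). Choroid plexus markers were higher in 6 of 6 tested genes, with sums of 739.4 to 1005 and 928.5 to 2684, and had r = 0.56 with Nr1d2 (permutation p = 0.0826, rho = 0.70, and r = 0.19 with 2 libraries left out). The sum of 2684 was that of AAV8-irisin mouse 4, with 1528 of Ttr against at most 162 in any other library. Outside that mouse most of each sum was Kl, which had 650 to 920 over all mice. Red cell markers were lower in 5 of 5 genes, 3 of them at unadjusted p under 0.05 by limma, and had r = −0.042 with Nr1d2 (permutation p = 0.906). Nr1d2 also ran against summed CA1 and CA3 pyramidal cell markers (r = −0.71, permutation p = 0.0195, adjusted p = 0.258 over 140 relations, rho = −0.54). It ran against summed astrocyte markers as well (r = −0.66, permutation p = 0.0328, adjusted p = 0.263, rho = −0.44). With 2 libraries left out these r values were −0.515 and −0.0026. The part of these cells in the Nr1d2 difference was not tested. Nr1d1 (chromosome 11, 98767932 to 98775333, minus strand) had 3176 ± 79.8 and 3173 ± 187, and its log2 difference of −0.0030 (95% interval −0.093 to 0.087) had a sign that turned when any 1 of 6 mice was left out. Its exons share 263 bases with those of Thra, the thyroid hormone receptor gene on the opposite strand, which had a mean of 34400 normalised counts. The labels describe no strand marking or strand setting, so reads of the pair cannot be told apart. Across mice Thra had r = −0.26 with Nr1d1 (permutation p = 0.470).

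Dbp, the output gene that the clock drives with the widest swing in many tissues (chromosome 7, 45705088 to 45710203, plus strand), had normalised counts of 2292, 1878, 1974, 2471 and 2643 in AAV8-GFP. In AAV8-irisin it had 2269, 2298, 2590, 2661 and 2667. AAV8-GFP mice 2 and 3 were the lowest, and each AAV8-irisin mouse exceeded the control mean. The means were 2252 ± 324 and 2497 ± 198 (SD, 5 mice each). The log2 difference was 0.16 (standard error 0.086, 95% interval −0.027 to 0.34, limma, unadjusted p = 0.0891, adjusted p = 0.942). It was 0.095 without AAV8-GFP mouse 2. Dbp exons share 539 bases, 18% of their length, with Sphk2 on the opposite strand. Across mice Sphk2 had r = −0.41 with Dbp (permutation p = 0.230, rho = −0.36).

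**Figure D2:**
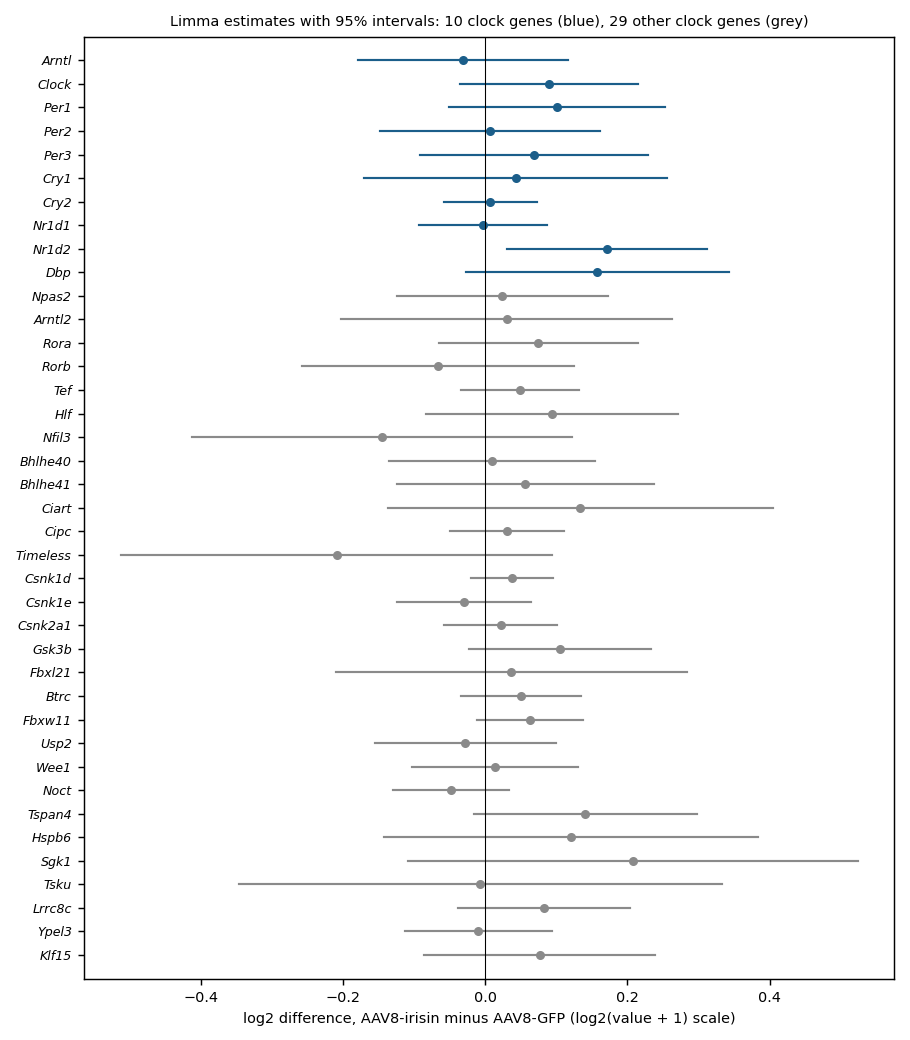
Log2 difference (AAV8-irisin minus AAV8-GFP, horizontal axis) with its 95% interval by limma for the 10 members in blue and 29 other clock genes in grey. The interval of Nr1d2 lies above 0, and the gene did not pass after adjustment over all tested genes.

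Divided by the summed length of annotated exons, levels followed the order Nr1d1, Cry2, Dbp, Nr1d2, Per1, Clock, Per2, Per3, Cry1 and Arntl. Nr1d1 had 1032 ± 44.1 normalised counts per kilobase and Arntl 132 ± 10.1 (SD over 10 mice). Cry2 and Dbp did not separate, with Cry2 the higher in 6 of 10 mice. Clock and Per2, with Clock the higher in 5 of 10, and Cry1 and Arntl, with Cry1 the higher in 4 of 10, did not separate either. Each of the other neighbours kept its order in at least 9 of 10 mice. Nr1d1 shares 8.55% of its exon length with Thra, and Dbp shares 18% with Sphk2. The part of these overlaps in the places of Nr1d1 and Dbp was not tested.

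The other clock genes were described in the same way. Of 30 listed 29 were tested, none passed, 21 had a higher mean in AAV8-irisin, 8 a lower one, and the median log2 difference was 0.037. The glycogen synthase gene Gys2 was not tested and reached at most 12.2. Npas2, a substitute for Clock that is abundant in the forebrain, differed by 0.024, and Arntl2 by 0.030. The log2 differences of the receptor genes Rora and Rorb, whose products oppose REV-ERB at Arntl, were 0.075 and −0.067. Tef and Hlf, the relatives of Dbp, had 0.048 and 0.094, and Nfil3, which competes with them at D-boxes, had −0.15. Of the other E-box repressors, Bhlhe40 had 0.0094, Bhlhe41 0.056, Ciart 0.13 and Cipc 0.030. Timeless, which was placed on the same list, had −0.21.

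Among 8 genes of kinases and of ubiquitin enzymes that act on clock proteins, 6 had a higher mean. Csnk1d, the kinase that phosphorylates PER, had 5516 ± 65.8 and 5660 ± 25.7. Each AAV8-irisin mouse exceeded every control, and the log2 difference was 0.037 (limma, unadjusted p = 0.186, adjusted p = 0.942). It was the 1 gene of the 29 whose groups did not overlap, against 0.803% of all tested genes. Log2 differences were 0.11 for Gsk3b, 0.063 for Fbxw11, 0.050 for Btrc, 0.037 for Fbxl21, 0.022 for Csnk2a1, −0.030 for Csnk1e and −0.028 for Usp2. Of 9 tested output genes 6 had a higher mean, with 0.21 for Sgk1, 0.14 for Tspan4, 0.12 for Hspb6, 0.083 for Lrrc8c, 0.076 for Klf15 and 0.013 for Wee1. The lower ones were Noct at −0.048, Ypel3 at −0.010 and Tsku at −0.0073.

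The second question was how the members moved together from mouse to mouse. Before adjustment, Dbp was high in the mice with high Per3, Per2 and Nr1d2 and low Arntl, and Per1 was high in those with high Cry2. Of 45 pairs of members, 11 had an unadjusted permutation p under 0.05 for Pearson's r of log2(value + 1) over the 10 mice, 9 of them positive and 2 negative. That is 24.4% of pairs, beside 7.44% of the 175505 relations of a member with any tested gene, of which 3.78% were positive ones. By member this share was 3.98% for Arntl, 20.4% for Clock, 6.56% for Per1, 4.6% for Per2, 6.51% for Per3, 7.95% for Cry1, 4.07% for Cry2, 4.24% for Nr1d1, 11.4% for Nr1d2 and 4.77% for Dbp. The shares of Clock and Nr1d2 were the highest, and their pairs are to be read against them. The correlation was above 0 in 37 of 45 pairs, beside 50.2% of those relations. Per3 or Dbp was in 8 of the 11 pairs, with Per3 in 5 and Dbp in 4. The 45 pairs share the same 10 genes and 10 mice, so they are not separate results. None of the 45 passed when adjusted over the 175505 relations, of which 0% passed.

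Dbp and Per3 had the highest Pearson's r of the 45 pairs, 0.79 (permutation p = 0.00703, adjusted p = 0.466) and rho = 0.78 (permutation p = 0.0104). The r stayed at 0.75 or above without any single mouse, and it was 0.71 (exact permutation p = 0.0526) without AAV8-GFP mouse 5 and AAV8-irisin mouse 5, the 2 farthest from the median of Per3. By rho, Arntl with Dbp, Per1 with Cry2, Arntl with Nr1d2 and Nr1d2 with Dbp were closer. The 3 mice highest in Per3, AAV8-GFP mouse 5 and AAV8-irisin mice 4 and 5, were also the 3 highest in Dbp. Of the 9 members searched, Per3 is the one with 2 D-boxes in its window, printed above, and Per2 was not searched. The part of these D-boxes in the relation of Per3 with Dbp was not tested. Per2 and Per3 had r = 0.76 (permutation p = 0.0124, rho = 0.76), and Per2 and Dbp r = 0.66 (permutation p = 0.0392, rho = 0.70). Those values were 0.49 and 0.50 without the same 2 mice, so both relations rest on them. Nr1d2 had r = 0.73 with Dbp (permutation p = 0.0182, rho = 0.79), r = 0.71 with Per3 (permutation p = 0.0231, rho = 0.56) and r = 0.71 with Clock (permutation p = 0.0194, rho = 0.71). With the 2 farthest mice left out r was 0.65, 0.63 and 0.60 (exact permutation p = 0.0813, 0.0954 and 0.116), so all of these rest in part on AAV8-GFP mice 3 and 1, on mouse 5 of both groups, and on AAV8-GFP mouse 1 and AAV8-irisin mouse 4.

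Arntl had a negative r with 7 of the other 9 members, and p was under 0.05 for 2 of the 9, Dbp and Per3, beside 3.98% of all tested genes. With Dbp it had r = −0.74 (permutation p = 0.0125, adjusted p = 0.521) and rho = −0.83 (permutation p = 0.00433). The coefficient was −0.81 (exact permutation p = 0.0196) without AAV8-GFP mice 5 and 3, the lowest and the highest in Arntl. Without AAV8-GFP mouse 2 or mouse 3 alone it was −0.67 (exact permutation p = 0.0528 and 0.0699). With group means removed it was −0.76 (exact permutation p = 0.0136 within groups). With Per3, Arntl had r = −0.67 (permutation p = 0.0203, rho = −0.61), which was −0.49 without AAV8-GFP mice 5 and 3 and so rests on them. With Nr1d2, the repressor gene of Arntl, r was −0.60 (permutation p = 0.0642), while rho was −0.82 (permutation p = 0.00561). The r of Arntl with Per2 was −0.49, with Nr1d1 −0.40, with Cry1 −0.30, with Clock −0.23, with Per1 0.0062 and with Cry2 0.40.

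**Figure D3:**
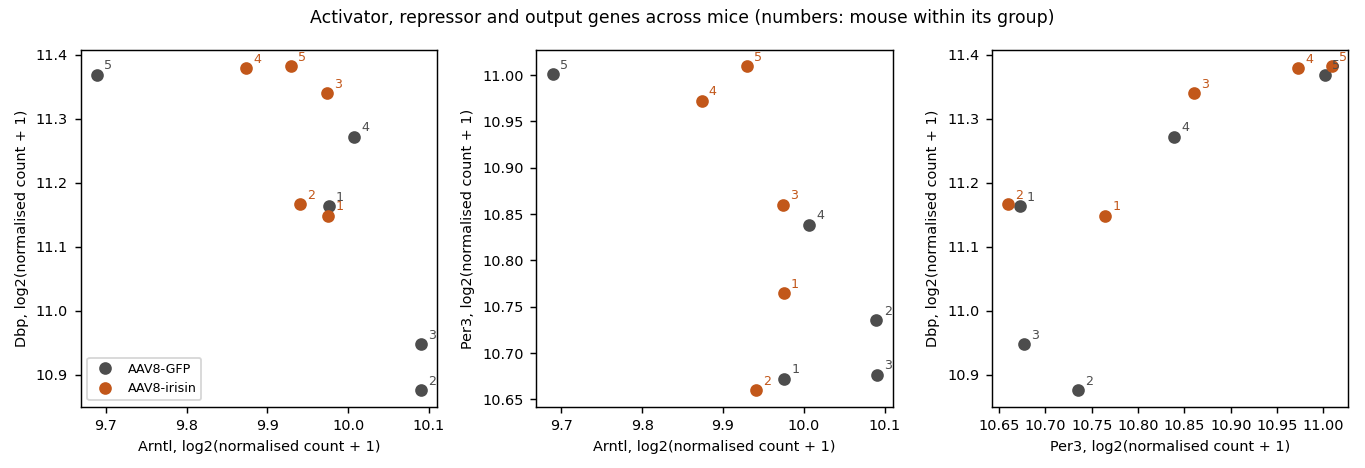
Log2(normalised count + 1) of Dbp against Arntl, Per3 against Arntl and Dbp against Per3, 1 point per mouse, AAV8-GFP in grey and AAV8-irisin in orange with mouse numbers. Mice with low Arntl have high Dbp (r = −0.74), and mice with high Per3 have high Dbp (r = 0.79).

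Per1 and Cry2 had r = 0.73 (permutation p = 0.0182) and rho = 0.83 (permutation p = 0.00473). This relation kept p under 0.05 without any single mouse (r of 0.68 or above) and without AAV8-GFP mouse 3 and AAV8-irisin mouse 5 together (r = 0.77, exact permutation p = 0.0272). The summed astrocyte markers that ran against Per1 also ran against Cry2 (r = −0.67, permutation p = 0.0387, adjusted p = 0.271 over the 140 relations, rho = −0.81, and r = −0.80 with 2 libraries left out). The part of astrocyte content in the relation of Per1 with Cry2 was not tested. Cry1 had r = 0.69 with Per3 (permutation p = 0.0338, rho = 0.62) and 0.64 with Nr1d1 (permutation p = 0.0437, rho = 0.72). Both rest on the 2 farthest mice, AAV8-irisin mouse 5 with AAV8-GFP mouse 5 and AAV8-irisin mouse 5 with AAV8-irisin mouse 4, and were 0.52 and 0.37 without them. Of the 11 pairs, 8 had p under 0.05 by rho and 7 with group means removed. With the 2 farthest mice left out 2 of the 11 kept p under 0.05, Arntl with Dbp and Per1 with Cry2, and 2 kept it in every omission of a single mouse, Per1 with Cry2 and Per3 with Dbp. Without AAV8-GFP mouse 3 only 4 of the 45 pairs had p under 0.05, and without AAV8-irisin mouse 5 there were 6.

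**Figure D4:**
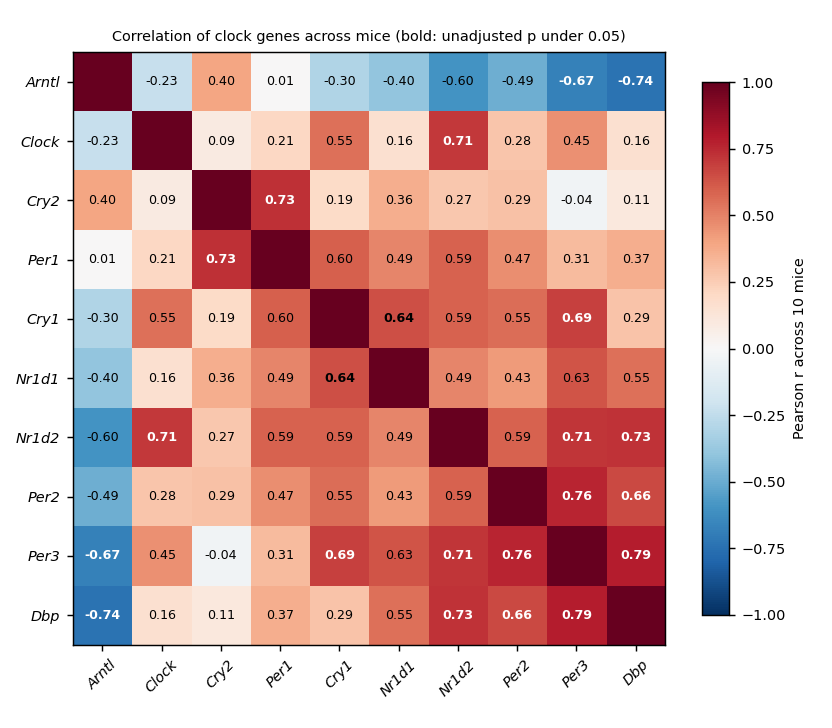
Pearson's r across the 10 mice for each pair of members, on a colour scale from −1 to 1, with bold type where the unadjusted permutation p was under 0.05. The row of Arntl is mostly negative, reaching −0.74 with Dbp, and the block of Nr1d2, Per2, Per3 and Dbp is positive.

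Several library measures moved with these genes. Arntl followed the estimated depth (r = 0.84, permutation p = 0.00443, rho = 0.75), which was lowest in AAV8-GFP mouse 5. The relation rests on the 2 extreme libraries, since r was 0.45 without them. Summed markers of CA1 and CA3 pyramidal cells ran with Arntl (r = 0.74, permutation p = 0.0232, rho = 0.71), against Per3 (r = −0.78, permutation p = 0.00498, rho = −0.79) and against Dbp (r = −0.77, permutation p = 0.00763, rho = −0.60). These r values were 0.47, −0.79 and −0.67 with the 2 farthest libraries left out (exact permutation p = 0.252, 0.0286 and 0.0606), so that of Arntl rests on these libraries and that of Dbp kept most of its size but not p under 0.05. Summed oligodendrocyte markers ran with Dbp (r = 0.86, permutation p = 0.00226, rho = 0.73, and r = 0.67 with 2 libraries left out). Summed thalamus markers ran with Arntl (r = 0.68, permutation p = 0.0205, rho = 0.85) and against Nr1d2 (r = −0.77, permutation p = 0.0107, rho = −0.78) and Per3 (r = −0.69, permutation p = 0.0317, rho = −0.67). With 2 libraries left out these were larger, at 0.81, −0.90 and −0.78 (exact permutation p = 0.0156, 0.00241 and 0.0255). For Dbp and Per2 the r with thalamus markers was −0.56 and −0.47 (permutation p = 0.0959 and 0.169, rho = −0.72 and −0.54), and −0.82 and −0.84 with 2 libraries left out. The thalamus sums spanned 1736 to 1970 in the controls and 1725 to 1842 with irisin, with 4 of 5 genes lower in the latter. Most of each thalamus sum was Prkcd (740 to 888) and Plekhg1 (636 to 727). Adjusted over the 140 relations, the p-values of those named in this paragraph were 0.158 to 0.531. The sums of pyramidal cell markers spanned 16840 to 19230 in the controls and 17220 to 18180 with irisin, with 5 of 6 genes lower in the latter. Those of oligodendrocytes spanned 92600 to 124200 and 107700 to 129300, with 5 of 5 higher. The part of tissue composition in the relations between members was not tested. Clock followed the first principal component (r = 0.79, permutation p = 0.0189, rho = 0.45), and r was 0.035 without the 2 farthest libraries. Removing that component left all 11 pairs at p under 0.05.

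Other clock genes were set against Dbp and Arntl in the same way. Dbp had positive relations at unadjusted p under 0.05 with 6 of the 29, or 20.7%, beside 4.77% of all tested genes, and negative ones with none. The strongest was with Lrrc8c, a channel subunit gene placed on the list of rhythmic outputs (r = 0.91, permutation p = 8e-05, adjusted p = 0.213, rho = 0.96), whose r was 0.89 with the 2 farthest mice left out. Klf15, a rhythmic regulator of metabolism, had r = 0.82 (permutation p = 0.00461, rho = 0.76, 0.73 with 2 mice left out). The E-box repressor Bhlhe41 had r = 0.79 (permutation p = 0.0071, rho = 0.87, 0.81 with 2 mice left out). Ciart and Sgk1 had r = 0.75 and 0.76 (permutation p = 0.0128 and 0.0111, rho = 0.79 and 0.82). With 2 mice left out these r values were 0.58 and 0.64 (exact permutation p = 0.13 and 0.0929), so neither kept p under 0.05. Tef, the relative of Dbp, had r = 0.63 (permutation p = 0.0499, rho = 0.70, 0.85 with 2 mice left out). Nfil3, the opponent of Dbp at D-boxes, had the opposite sign, with r = −0.57 (permutation p = 0.0711, rho = −0.62). Arntl had relations at p under 0.05 with 2 of the 29, or 6.9%, beside 3.98% of all tested genes. Cry2 had 1 of 29 beside 4.07%, and Nr1d1 had 0 of 29 beside 4.24%. Of the other members, Nr1d2 had 8 of 29 (27.6%, beside 11.4%), Per2 had 7 (24.1%, beside 4.6%) and Clock had 7 (24.1%, beside 20.4%). Per3 had 5 (17.2%, beside 6.51%), Cry1 had 4 (13.8%, beside 7.95%) and Per1 had 2 (6.9%, beside 6.56%). The 2 of Arntl, with Bhlhe41 and Lrrc8c, were negative, at −0.72 and −0.81 (permutation p = 0.0178 and 0.00095, rho = −0.71 and −0.90). These were −0.42 and −0.84 with 2 mice left out, so that of Bhlhe41 rests on them.

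Over all tested genes with a given name, the profile most like that of Dbp across the 10 mice was that of Slc2a1, the glucose transporter of brain endothelium and astrocytes. Its r was 0.95 (permutation p = 1e-05, the smallest that 100000 resamples can give, adjusted p = 0.195), with rho = 0.98 and r = 0.99 without the 2 farthest mice. Lrrc8c, Slc35f3, Endod1 and Tsc22d3 followed, with r of 0.91, 0.91, 0.91 and 0.90. Tsc22d3 is a gene induced by glucocorticoids. The genes most opposed to Dbp were Adgrf4, Nr4a3, Tril, Klk10 and Vegfc, with r of −0.92, −0.90, −0.88, −0.88 and −0.88. For Arntl, the most similar profiles were those of Col2a1, Fuca2, Tmem136, Man1b1 and Zfp951, with r of 0.92, 0.90, 0.90, 0.89 and 0.88. The most opposed were those of Prps1, Gtf2h4, Erlin1, Slc7a5 and Slco4a1, with r of −0.91, −0.88, −0.87, −0.87 and −0.87. None of these 20 passed when adjusted over the 175505 relations. Spearman's rho had the same sign in each. With the 2 mice farthest from the median of Dbp or Arntl left out, the exact permutation p was no longer under 0.05 for Adgrf4, Klk10, Vegfc, Slc35f3, Gtf2h4, Erlin1, Tmem136 and Zfp951.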

How the data were processed

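Poly(A)-selected libraries of 10 hippocampi, 5 per group, were used. Per the submitters' processing notes, the authors used bcl2fastq 2.17, DESeq2 and build mm10. The sources used here do not give an aligner, a counter or an annotation. The deposited values are a signal per gene, which the authors' file name calls normalised counts by DESeq2. Low values were whole multiples of a library's commonest one, within 0.1 reads, in 49% to 71.5% of cases, so whole reads could not be recovered, depth is an estimate and tests on counts were not run. Values were converted to log2(value + 1) and fitted with limma 3.58.1 in R 4.3.3 (trend in the prior variance, two-sided, Benjamini-Hochberg over 17556 genes, threshold 0.05). The fit was tested on simulated data, where it recovered 37.5% of genes changed 1.25-fold, 71.4% at 1.5-fold and 93.9% at 2-fold. The largest fold among the members, 1.13 for Nr1d2, was below the smallest one simulated. Relations were tested two-sided in Python 3.11.15 by 100000 permutations of the mice, and exactly with 8 or 9 mice, within groups or over pairs. Each member was set against every tested gene. By their titles, the samples are separate mice.

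The members and lists were chosen with earlier results of these data known. The text names the 10 members, all tested genes of the other clock lists, the 2 genes of smallest p of each remaining pathway list, and the 5 most and 5 least correlated named genes for Dbp and Arntl. A few genes of the clock lists are not reported here and were left out of the list counts. Positions are from GENCODE M21, on mm10. Exons of Cry2 also overlap the opposite-strand transcript D930015M05Rik (295 bases) and those of Arntl overlap Gm45355 (33 bases). Alternatives covered pseudocount, filter, quantile scaling, array weights, the mouse number, single mice left out and, added after seeing the data, the first principal component.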

Additional observations from a re-analysis of the deposited data

How the results depend on the processing

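Of 170 log2 differences of the 10 members recomputed under alternatives, 154 kept their sign and side of the threshold, 16 changed sign and none passed. Per2 was −0.00107 with quantile normalisation and −0.0252 with array weights. Leaving out 1 mouse gave ranges of −0.0492 to 0.0412 for Per2, −0.0257 to 0.0930 for Cry1, −0.00670 to 0.0212 for Cry2 and −0.0345 to 0.0146 for Nr1d1. Without a filter, 26538 genes were tested and 1 was called, Gm49383 (limma, adjusted p = 0.0108), chosen here after its values were seen, with 2.66 to 13.9 normalised counts in AAV8-GFP and listed at 0 in AAV8-irisin. Titles give both groups mouse numbers 1 to 5. Same-numbered mice did not deviate together (r of −0.0891 to 0.0297, and 0 of 5 correlated best with its own number). With the replicate block 0 genes were called and 0 of 45 pairs of members had p under 0.05 over the 5 differences between same-numbered mice. The r of Per3 with Dbp was then 0.12, of Per2 with Per3 0.12, of Arntl with Per3 −0.23, of Clock with Nr1d2 0.26, of Per3 with Nr1d2 0.28, of Arntl with Dbp −0.65 and of Per1 with Cry2 0.89. The number of pairs with p under 0.05, 11 with all mice, was 4 when the 2 farthest mice were left out, 2 of them among the 11 and the others Arntl with Nr1d2 and Per2 with Cry2, and 4 to 13 when 1 mouse was left out. Of 176 recomputed values of these 11 relations, 118 kept p under 0.05, 58 did not and none changed sign. The cause of these changes was not tested. The planned count tests on whole reads were not run, since whole reads could not be recovered. The part of depth in the values of members was not tested.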

Other observations

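Temperature, glucocorticoids and neuronal activity are known to act on clock genes, and lists of their target genes were compared between the groups. Among 9 temperature and heat shock genes the mean was higher with irisin for 4 and lower for 5, and the median log2 difference was −0.0045, beside 0.00099 over all tested genes. Rbm3, the cold-inducible RNA-binding protein whose level follows body temperature, had 3582 ± 162 normalised counts in the controls and 3815 ± 283 with irisin (SD, 5 mice each, limma, adjusted p = 0.942). The chaperone gene Hsph1 had 9890 ± 197 and 9498 ± 366, a log2 difference of −0.059. Of 10 glucocorticoid-induced genes 8 had a higher mean, with a median of 0.062. Tsc22d3 differed by 0.16 and the lipid droplet gene Plin4 by 0.49 (95% interval −0.28 to 1.27). The mean was lower for 9 of 12 activity-regulated genes, whose median was −0.025, where Fosb differed by −0.16 and Dusp1 by 0.15. None of these 31 genes passed by limma, and none had an unadjusted p under 0.05.

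Of the 3 tested genes on the list of the suprachiasmatic nucleus, Rgs16, a regulator of G protein signalling, had 187 ± 18.5 normalised counts in the controls and 222 ± 8.40 with irisin, and each AAV8-irisin mouse exceeded every control. Its log2 difference was 0.25 with a 95% interval of 0.066 to 0.43 (limma, unadjusted p = 0.0110, adjusted p = 0.942). It was singled out after its values were seen, and the groups of 0.803% of all tested genes did not overlap.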
